A study of Mus musculus with 4 samples.

Results

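The genes of the mitochondrial respiratory chain and ATP synthase were followed through the inner cell mass and the trophectoderm of mouse embryos at the times labelled D10 and E4. The members were the protein-coding genes of the count table whose symbols start with Nduf, Uqcr, Cox4 to Cox8 or Atp5, the succinate dehydrogenase genes Sdha to Sdhd, and the mitochondrially encoded genes named mt-Nd, mt-Co, mt-Cyt or mt-Atp. This rule uses names only and found 104 genes among 21470 listed, of which 15379 were protein-coding. Of the 104, 91 lie in the nuclear genome and 13 in the mitochondrial genome, which is all of the proteins that mammalian mitochondrial DNA encodes. Complex I had 45 members (38 nuclear and 7 mitochondrial) and 8 further assembly factors, complex II 4, complex III 9, complex IV 19 and complex V 19. Ndufa4 was counted with complex IV, where its protein is known to sit. A further 9 matching symbols of other biotypes, such as pseudogenes, were left out. Cox5b-ps carried the protein-coding biotype and stayed among the complex IV members. The Ndufb1 entry, also kept, has the symbol Ndufb1-ps in GENCODE.

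The respiratory chain passes electrons from NADH (complex I) and succinate (complex II) through ubiquinone, complex III and cytochrome c to oxygen at complex IV, and the proton gradient made on the way drives ATP synthase, complex V. Complexes I, III, IV and V are assembled from subunits of both genomes, so that mitochondrial and nuclear transcripts must both be supplied, while complex II is wholly nuclear. In diapause the blastocyst halts its development reversibly and does not implant, and low metabolic activity is among the features the arrested embryo is known for.

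There were 4 groups of 5 barcoded libraries each: D10 ICM, E4 ICM, D10 TE and E4 TE. All embryos were labelled wild type and came from B6D2F1 fathers and ICR mothers; the ICM groups are labelled embryonic side and the TE groups extra-embryonic side. The series title places the samples before and after diapause, the protocol calls all dissected embryos diapause embryos, and in the barcode list E4 carries the word before and D10 the words day 6, so these sources differ. The libraries of a group were mixed before PCR, which leaves pool and group inseparable. ICM and TE libraries share 5 litters at each time. Of the E4 litters, 2 are labelled with zona and 3 without, and the D10 litters are all labelled without. How many embryos make up 1 library is not stated. The p-values therefore set group differences against the spread between these libraries, which need not be the spread between embryos.

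Library totals ran from 144276 to 1010354 counts, with 9458 to 14402 genes detected, and a count of 0 allows 2.97 to 20.8 CPM (library-scaled counts, with TMM factors) depending on the library. Lineage markers followed the dissection, with 1 exception at D10. Of the epiblast markers 8 of 8 tested were higher in the ICM at E4 and 7 of 8 at D10, and of the primitive endoderm markers 7 of 7 at E4 and 6 of 7 at D10. Of 8 trophectoderm markers, 6 were lower in the ICM at E4, and at D10 7 were lower and 1 (Elf5) higher. The 8 trophectoderm markers summed to 3441 to 5373 CPM in D10 ICM libraries and 2050 to 2948 CPM in E4 ICM libraries, against 7089 to 9540 CPM in D10 TE and 6972 to 7835 CPM in E4 TE libraries, so the ICM libraries held trophectoderm transcripts, more at D10. Within the ICM, the epiblast markers summed to 617 to 1133 CPM at D10, against 1487 to 2732 CPM at E4, and the primitive endoderm markers to 4941 to 7564 CPM at D10, against 1509 to 2942 CPM at E4. The part of these shifts in the results below was not tested. Maternal blood (4 of 6 listed genes analysed) and uterine markers were low, with 129 blood marker counts over the D10 ICM libraries and 76 uterine marker counts over the E4 ICM libraries as the largest sums. D10 ICM replicate 3 and D10 TE replicate 5 held the most mitochondrial rRNA, 11.5% and 8.54% of their counts.

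Promoters of 5 members whose levels carry the results below are printed here, from RefSeq (build GRCm38.p6), 250 bases before to 50 after the annotated start, 5′ to 3′ on the gene's strand. Cox7a2l and Cox6b2 were higher at D10 in both tissues, Ndufv1 and Atp5md changed differently in the ICM and the TE, and Ndufb8 was lower in the ICM at both times. Capitals mark the motif strings searched on both strands.

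Cox7a2l, chr17:83514284-83514583, minus strand: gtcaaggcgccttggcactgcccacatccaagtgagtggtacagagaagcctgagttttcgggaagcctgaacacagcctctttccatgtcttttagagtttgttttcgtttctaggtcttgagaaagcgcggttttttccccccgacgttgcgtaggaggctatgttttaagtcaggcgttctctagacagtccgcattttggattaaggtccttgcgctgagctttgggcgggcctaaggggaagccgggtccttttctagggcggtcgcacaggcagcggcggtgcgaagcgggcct
Cox6b2, chr7:4753045-4753344, minus strand: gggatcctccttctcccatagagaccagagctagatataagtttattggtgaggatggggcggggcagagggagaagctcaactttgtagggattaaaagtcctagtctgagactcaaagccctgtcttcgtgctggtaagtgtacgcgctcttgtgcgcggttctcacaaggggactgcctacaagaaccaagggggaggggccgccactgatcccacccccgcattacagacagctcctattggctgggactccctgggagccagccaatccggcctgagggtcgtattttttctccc
Ndufv1, chr19:4012706-4013005, minus strand: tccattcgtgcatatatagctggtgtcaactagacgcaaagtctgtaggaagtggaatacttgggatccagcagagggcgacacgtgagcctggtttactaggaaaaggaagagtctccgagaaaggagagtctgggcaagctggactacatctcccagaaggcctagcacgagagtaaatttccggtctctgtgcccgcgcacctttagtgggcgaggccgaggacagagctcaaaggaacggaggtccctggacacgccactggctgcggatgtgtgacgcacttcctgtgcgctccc
Atp5md, chr19:47090598-47090897, minus strand: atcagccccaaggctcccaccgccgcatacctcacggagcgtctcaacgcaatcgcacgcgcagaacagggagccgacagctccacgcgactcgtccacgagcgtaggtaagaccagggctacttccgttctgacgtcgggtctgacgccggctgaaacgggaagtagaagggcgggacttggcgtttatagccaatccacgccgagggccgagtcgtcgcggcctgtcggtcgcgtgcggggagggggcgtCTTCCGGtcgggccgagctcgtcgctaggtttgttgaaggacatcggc
Ndufb8, chr19:44555393-44555692, minus strand: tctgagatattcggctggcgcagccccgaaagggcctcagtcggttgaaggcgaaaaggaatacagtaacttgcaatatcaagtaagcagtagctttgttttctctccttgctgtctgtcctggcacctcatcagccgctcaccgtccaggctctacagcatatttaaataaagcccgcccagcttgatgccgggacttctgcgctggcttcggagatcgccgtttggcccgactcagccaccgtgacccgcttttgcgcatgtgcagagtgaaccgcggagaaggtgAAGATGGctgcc

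The 3 strings were GCATGCG for NRF1, CCGGAAG for the ETS family that includes GABPA, and AAGATGG for YY1, factors known to act on many respiratory chain promoters. The last 3 letters of the ETS string open the YY1 string, so a run that held both counted for both. RefSeq windows were found for 76 of the 104 members, 81 windows in all. The NRF1 string was in 16.0% of these windows and in 4.47% of the 21006 windows of all protein-coding genes. The ETS string was in 23.5% against 11.7%, and the YY1 string in 14.8% against 6.29%. The Cox7a2l, Cox6b2 and Ndufv1 windows held none of the 3 strings, which says only that these letters are not in these windows. The Cox7a2l window lies inside the GENCODE span of this minus-strand gene, which reaches to 83517330. The sequence at that outer start was not searched. Atp5md held 1 ETS string and Ndufb8 held 1 YY1 string just after its start.

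Of the 104 members, 96 had enough counts to be tested (86 nuclear and 10 mitochondrial) among 6943 genes tested in all. The test was edgeR's quasi-likelihood test with Benjamini-Hochberg adjustment over all 6943 genes, and a call is an adjusted p under 0.05. Calls fell on 42 of the 96 in at least 1 of the 4 comparisons of times or tissues, and 54 had none. Differences are log2 values ± standard error of the fit. As these are tissue samples, fewer cells of a type and less RNA per cell cannot be told apart.

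The widest pattern was between the tissues. At E4, 20 of 96 members were lower in ICM than in TE libraries (20.8%, where 15.4% of all tested genes were lower) and 1 was higher (1.04%, where 15.8% were higher). Differences were negative for 71 of the 96 members, with a median of -0.25 on the log2 scale against 0.03 over all genes. At D10, 13 members were lower in the ICM (13.5%, where 12.6% of all genes were lower) and 3 higher (3.12%, where 12.9% were higher). The share of lower calls at D10 was thus near that over all genes, while the share of higher calls was below it. The median at D10 was -0.24 against 0.01 over all genes, with 69 of 96 negative. The lists of members lower in the ICM shared 6 genes, which is 30% of the 20 at E4 and 46.2% of the 13 at D10. The shared genes were Ndufa1, Ndufb8, Ndufb9, Ndufs5, Cox4i1 and Atp5mpl. The 13 lower calls at D10 became 8 without D10 ICM replicate 1, 7 without D10 ICM replicate 5 and 5 without D10 TE replicate 5. The 3 higher calls became 1 without E4 ICM replicate 4, D10 ICM replicate 4, D10 TE replicate 1 or D10 TE replicate 4. The single higher call at E4 (mt-Nd2) was lost without replicate 1 or 5 of E4 ICM and without replicate 4 or 5 of E4 TE, and became 2 without E4 TE replicate 1. With the litter shared by ICM and TE libraries as a block, there were 2 higher calls at E4 and 5 at D10.

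Across time the median of the set lay near that of all genes in both tissues. In the ICM, 8 of 96 members were higher at D10 than at E4 (8.33%, where 13.7% of all genes were higher) and 3 were lower (3.12%, where 9.97% were lower), and the median difference was 0.06. In the TE, 7 were higher at D10 (7.29%, where 11.9% were higher) and 9 lower (9.38%, where 9.89% were lower), with 48 differences positive and 48 negative. Cox6b2 and Cox7a2l were the members called higher at D10 in both tissues, 25.0% of the 8 in the ICM and 28.6% of the 7 in the TE, and no member was called lower in both. Without E4 ICM replicate 2 or D10 ICM replicate 2, the 8 higher calls in the ICM became 5, and without E4 ICM replicate 1 or 4 or D10 ICM replicate 1 or 5 the 3 lower calls became 1. In the TE the 7 higher calls became 3 without E4 TE replicate 2 or 4 or D10 TE replicate 2, and 4 without E4 TE replicate 5 or D10 TE replicate 5. The 9 lower calls became 5 without E4 TE replicate 3 or D10 TE replicate 1.

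The D10 minus E4 change differed between the tissues for 3 members. Ndufv1 and Atp5md had the more positive change in the ICM (2 of 96, 2.08%, where 3.15% of all genes did) and 1 had the more negative one (1.04%, where 1.83% did). The 2 became 1 without replicate 2, 3 or 5 of E4 ICM, replicate 4 of E4 TE, or D10 ICM replicate 3 or 4, and 5 without D10 ICM replicate 1. The 1 became 2 without D10 TE replicate 4. With the litter as a block, 4 members had the more positive change in the ICM.

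**Figure D1:**
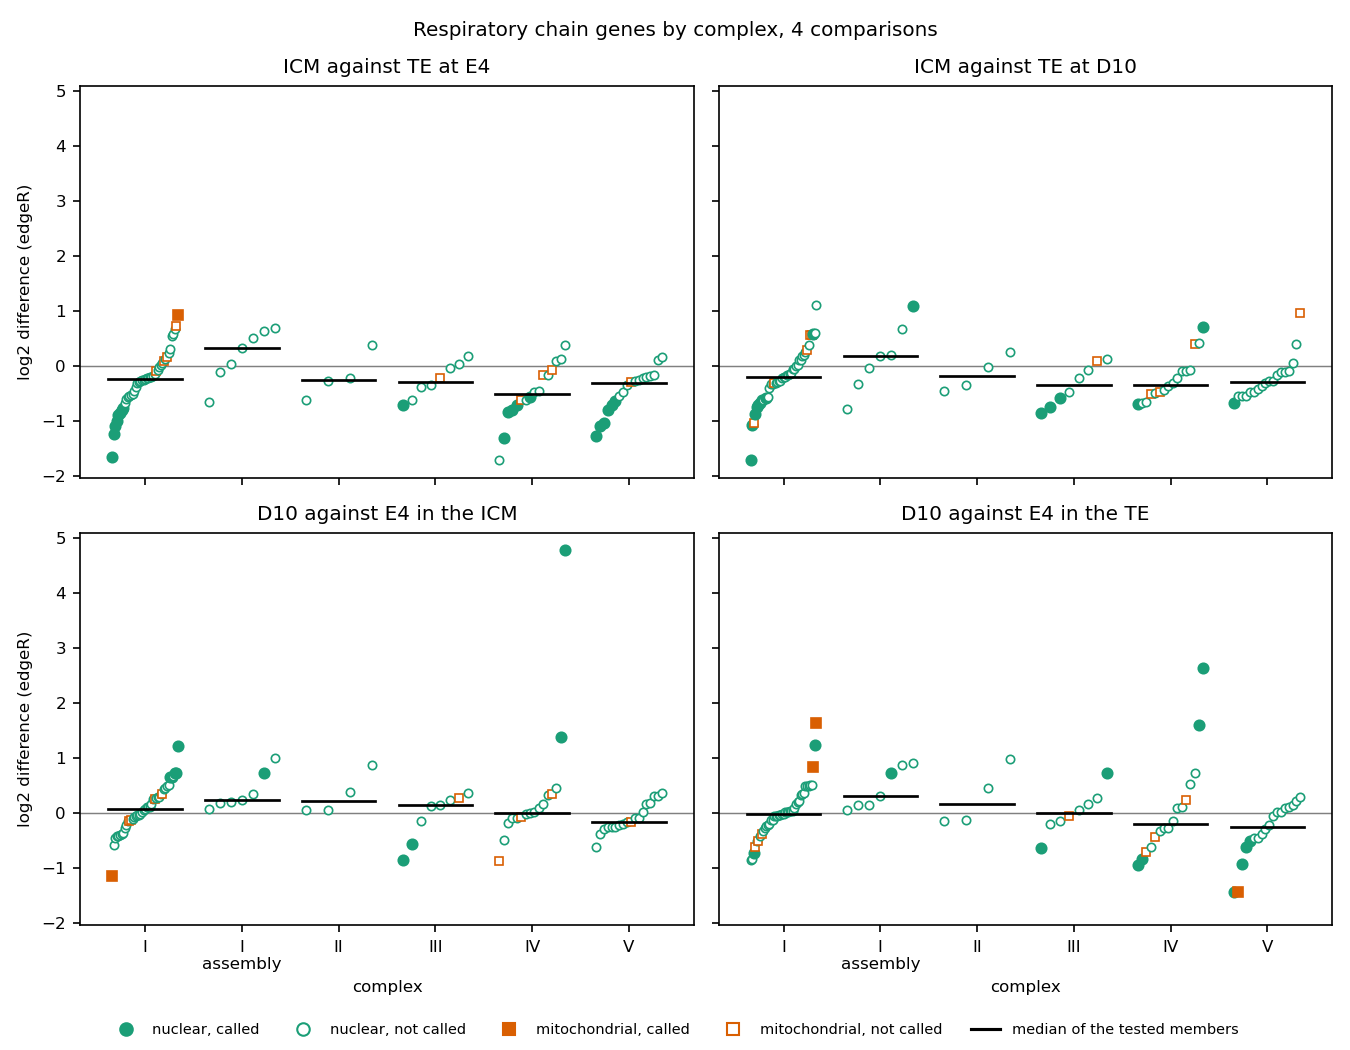
Each point is 1 of the 96 tested respiratory chain genes, placed by complex on the horizontal axis and by its log2 difference from the edgeR fit on the vertical axis, in 4 comparisons. Circles are nuclear and squares mitochondrial genes, filled symbols passed the test, and black lines are medians of the tested genes of a complex; most points of the upper panels lie below 0, while the lower panels spread to both sides, with Cox6b2 the highest point at 4.77 in the ICM and 2.64 in the TE.

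Complex I has a catalytic core, conserved from bacteria, and a shell of accessory subunits. At E4, 8 of the 31 accessory subunits were lower in the ICM (25.8%, where 15.4% of all genes were) and 0 of the 7 nuclear core subunits by edgeR or DESeq2 (1 at an unadjusted p under 0.05). At D10, 6 accessory subunits were lower (19.4%, where 12.6% of all genes were), and of the core 2 were lower (28.6%) and 1 higher. Whether core and accessory subunits differ was not tested. Across time in the ICM, 4 accessory subunits (Ndufa2, Ndufb1, Ndufb11 and Ndufs4) and 1 core subunit (Ndufv1) were higher at D10. These are 12.9% of the accessory and 14.3% of the nuclear core subunits, near the 13.7% of all genes that were higher.

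Ndufv1 (GRCm38 chromosome 19, 4007384 to 4012806, minus strand) encodes the flavoprotein that takes electrons from NADH. It had 181, 158, 133, 229.8 and 209 CPM in D10 ICM libraries, against 76.1, 88.8, 57.9, 88.9 and 86 CPM in E4 ICM libraries, so that every D10 value lay above every E4 value. In the TE it had 117, 83.6, 144, 99.6 and 175 CPM at D10, against 109, 99.5, 129, 128 and 107 CPM at E4, and the ranges overlapped. The difference was 1.21 ± 0.22 in the ICM (adjusted p = 0.000311) and 0.09 ± 0.22 in the TE (adjusted p = 0.827). The 2 changes differed by 1.12 ± 0.31 (adjusted p = 0.0313). This call did not hold without replicate 3 of E4 ICM, replicate 4 of E4 TE or replicate 4 of D10 ICM, where the adjusted p reached 0.0641. It was also lost with no low-count filter, with thinned libraries and without the zona litters (highest adjusted p = 0.093). At D10 Ndufv1 was higher in ICM than in TE libraries (0.58 ± 0.21, adjusted p = 0.0411), a call lost in 7 of the 20 fits that each left out 1 library.

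Among the accessory subunits, Ndufs5 showed the widest gap between the tissues. This gene (chromosome 4, 123712710 to 123718202, minus strand) encodes a small subunit of the intermembrane space side. It had 14.3, 62.6, 49.9, 49.3 and 13.9 CPM in D10 ICM libraries, against 133, 147, 96.3, 139.8 and 172 CPM in D10 TE libraries. At E4 it had 31.7, 36.6, 32.4, 33.1 and 38.7 CPM in ICM libraries, against 138, 104, 124, 97.6 and 78.7 CPM in TE libraries. Every ICM library lay below every TE library at both times, with differences of -1.71 ± 0.27 at D10 (adjusted p = 3.64e-05) and -1.65 ± 0.30 at E4 (adjusted p = 0.000145). Of the words of 81 bases (the insert length) in its last 300 annotated bases, 48.2% also occur in another annotated gene, BC002163, which is not listed in the table analysed here.

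Ndufb8 (chromosome 19, 44548572 to 44555440, minus strand), a subunit of the membrane arm, had 158, 99.2, 144, 155 and 112 CPM in E4 ICM libraries, against 311, 261, 394, 343 and 243 CPM in E4 TE libraries. At D10 it had 114, 132, 138, 173 and 107 CPM in the ICM, against 189.8, 212, 177, 213 and 314 CPM in the TE. The tissues did not overlap at either time, and the difference was -1.23 ± 0.21 at E4 (adjusted p = 7.59e-05) and -0.70 ± 0.21 at D10 (adjusted p = 0.0129). The D10 call was lost without D10 TE replicate 5, the highest library (adjusted p = 0.0624), and with all libraries thinned to 144276 counts (adjusted p = 0.269). Another gene of the same strand, Gm20538, overlaps its 3′ end.

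Ndufa5, a subunit of the peripheral arm, had 171, 149, 137, 139 and 151 CPM in E4 ICM libraries, against 397, 303, 282, 327 and 272 CPM in E4 TE libraries, and in D10 TE libraries it had 153, 216, 164, 225 and 202 CPM. The E4 TE libraries were thus above all others. Its difference was -1.09 ± 0.18 between ICM and TE at E4 (adjusted p = 4.22e-05) and -0.72 ± 0.17 between D10 and E4 in the TE (adjusted p = 0.00339), comparisons that share the E4 TE libraries.

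Ndufs4, needed for the last steps of complex I assembly, was lower in ICM than in TE libraries at E4 (-1.0 ± 0.21, adjusted p = 0.000684) and higher at D10 than at E4 within the ICM (0.66 ± 0.21, adjusted p = 0.0236). Its ICM libraries spanned 97.5 to 149.6 CPM at D10, against 64.5 to 120.5 CPM at E4, and the call across time was lost without E4 ICM replicate 2 or 5 or D10 ICM replicate 2. Ndufa1 was lower in the ICM at D10 (-1.07 ± 0.27, adjusted p = 0.0037) and at E4 (-0.88 ± 0.28, adjusted p = 0.0169), the E4 call being lost without E4 TE replicate 3. Ndufa2 (0.73 ± 0.21, adjusted p = 0.0123), Ndufb11 (0.65 ± 0.19, adjusted p = 0.0137) and Ndufb1 (0.73 ± 0.24, adjusted p = 0.0319) were the other accessory subunits higher at D10 in the ICM. The Ndufb1 call was lost without any of 6 single libraries, 3 from each group. The Ndufa2 call was lost without the E4 litters with a zona (adjusted p = 0.0793). The Ndufb11 call was lost there and with no low-count filter (highest adjusted p = 0.118). The 3′ end of Ndufa2 overlaps Tmco6 on the opposite strand, and whether counting used strand is not given in the sources used here.

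Of the 8 complex I assembly factors, which build the complex but are not part of it, 7 were tested. Their differences were positive in all 7 in both tissues across time. Only Ndufaf6 in the ICM (0.72 ± 0.25, adjusted p = 0.0355) and Ndufaf4 in the TE (0.72 ± 0.26, adjusted p = 0.0459) passed. Each is 14.3% of the 7, near the 13.7% of all genes that were higher in the ICM and the 11.9% in the TE. The Ndufaf6 and Ndufaf4 calls were lost in 6 and 15 of the 20 fits that each left out 1 library. Ndufaf6 was higher in ICM than in TE libraries at D10, with 85.6, 85.7, 60.9, 75.6 and 60.4 CPM in ICM libraries, against 32.9, 44.9, 28.1, 36.7 and 30 CPM in TE libraries. The tissues did not overlap, and the difference of 1.10 ± 0.24 (adjusted p = 0.0012) passed in every fit with a library left out.

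Complex II, succinate dehydrogenase, links the TCA cycle to the chain. None of its 4 subunits passed edgeR's test in any of the 5 comparisons, though 2 of the 4 were higher at D10 at an unadjusted p under 0.05 in the ICM and 2 in the TE, where DESeq2 called 1 of them, and 1 was lower in the ICM at E4 at that p. The flavoprotein Sdha had 214, 275, 294, 232 and 293 CPM in D10 ICM libraries, against 165, 136, 252, 215 and 219 CPM in E4 ICM libraries, and 387, 330.3, 297, 319.7 and 311 CPM in D10 TE libraries, against 224, 232, 222, 255 and 265 CPM in E4 TE libraries. The D10 TE libraries lay above the E4 TE libraries without overlap, with a difference of 0.46 ± 0.18 (adjusted p = 0.0645), while the ICM groups overlapped, with 0.39 ± 0.18 (adjusted p = 0.121). The iron-sulfur subunit Sdhb and the membrane anchor Sdhc differed little across time, by 0.05 ± 0.24 and 0.05 ± 0.23 in the ICM and by -0.12 ± 0.23 and -0.15 ± 0.23 in the TE. Sdhd, the other anchor, was at 33 to 66.5 CPM in D10 ICM, 20.8 to 37.2 CPM in E4 ICM, 25.6 to 57.4 CPM in D10 TE and 0 to 34.5 CPM in E4 TE libraries, so its error was wide (0.98 ± 0.41 across time in the TE, adjusted p = 0.0866).

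In complex III, which hands electrons from ubiquinone to cytochrome c, 3 of 8 tested members were lower in the ICM at D10 (Uqcrh, Uqcrc1 and Uqcr11; 37.5%, where 12.6% of all genes were) and 1 at E4 (Uqcrb; 12.5%, where 15.4% were). The Uqcrc1 call at D10 was lost with replicate 2 or 3 of D10 ICM or replicate 5 of D10 TE left out, and with DESeq2, no filter, thinning or without both libraries highest in mitochondrial rRNA (highest adjusted p = 0.667). Uqcrh, the hinge protein, had 399, 554, 432, 441 and 125 CPM in D10 ICM libraries, against 465, 773, 722, 695 and 885 CPM in D10 TE libraries, where D10 ICM replicate 5 was the lowest and the ranges overlapped. Its difference was -0.84 ± 0.25 (adjusted p = 0.0148), kept in every fit with a library left out. Across time in the ICM, Uqcr10 (-0.85 ± 0.27, adjusted p = 0.0215) and the core protein Uqcrc1 (-0.56 ± 0.19, adjusted p = 0.0357) were lower at D10. Uqcr10 had 138, 189.5, 127, 287 and 135 CPM in D10 ICM libraries, against 380.4, 235, 266, 422 and 344 CPM in E4 ICM libraries, so D10 replicate 4 alone reached the E4 range. Those calls were lost in 5 and 9 of the 20 fits with 1 library left out, and DESeq2 did not call Uqcrc1. In the TE, Uqcrb was lower at D10 (-0.63 ± 0.20, adjusted p = 0.0216, lost without E4 TE replicate 3 or D10 TE replicate 1) and Uqcrh higher (0.73 ± 0.25, adjusted p = 0.0392, lost in 12 of the 20 fits). Uqcrc2, the other core protein, had 111 counts in all 20 libraries and was not tested; all words of its 3′ end also lie in Pdzd9 on the opposite strand.

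Complex IV, cytochrome c oxidase, has subunits that come in forms tied to tissue or stage. Cox7a2l (chromosome 17, 83501918 to 83517330, minus strand), also known as SCAF1, is related to the Cox7a subunits and joins complexes III and IV in supercomplexes. It had 827, 705, 869.7, 662 and 381 CPM in D10 ICM libraries, against 241, 201, 229, 333 and 318 CPM in E4 ICM libraries. In the TE it had 589.5, 939.9, 1071, 604 and 1210 CPM at D10, against 276, 282, 368, 305 and 222 CPM at E4. No D10 library overlapped the E4 libraries of its tissue, and D10 ICM replicate 5 came nearest. The difference was 1.38 ± 0.24 in the ICM, 2.6-fold (adjusted p = 0.000212), and 1.59 ± 0.24 in the TE, 3.0-fold (adjusted p = 3.69e-05). Both calls held in every alternative, and the difference of the 2 changes did not pass (-0.21 ± 0.34, adjusted p = 0.799).

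Its relative Cox7a2, the form of subunit 7a found in most tissues, was not called higher at D10. Cox7a2 had 119, 173, 266, 145 and 167 CPM in D10 ICM libraries, against 197, 128, 139, 169.6 and 142 CPM in E4 ICM libraries, and the ranges overlapped. It had 144, 218, 253, 187 and 265 CPM in D10 TE libraries, against 495, 286, 487, 339 and 286 CPM in E4 TE libraries, so that all D10 values lay below the E4 values. Differences were 0.16 ± 0.24 in the ICM (adjusted p = 0.672) and -0.83 ± 0.22 in the TE (adjusted p = 0.00829), and at E4 the ICM was lower than the TE by -1.31 ± 0.23 (adjusted p = 0.000128). Cox7a1, the muscle form, had 53 counts in all and was not tested; 21 counts in D10 ICM libraries stood against 20 in E4 ICM libraries, and 1 count in D10 TE libraries against 11 in E4 TE libraries.

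Cox6b2 (chromosome 7, 4751792 to 4753094, minus strand), the form of subunit 6b known from testis, was close to the detection limit at E4. It had 28.5, 33, 11.1, 80.8 and 27.9 CPM in D10 ICM libraries, against 0, 0, 2.32, 0 and 4.3 CPM in E4 ICM libraries. All 5 D10 libraries lay above the E4 libraries. The pooled counts were 111 at D10 and 2 at E4, a ratio of 43.3 with an exact 95% interval of 11.7 to 362 for counting error only, and the test passed (log2 difference 4.77 ± 1.07, adjusted p = 0.00212). In the TE it had 12.8, 116, 4.01, 14 and 5.46 CPM at D10, against 0, 4.15, 9.74, 3.98 and 0 CPM at E4. These ranges overlapped, and 1 library, D10 TE replicate 2, was far above the others. The TE call (2.64 ± 0.90, adjusted p = 0.0366) was lost without that library (log2 difference 0.96, adjusted p = 0.406) and without E4 TE replicate 1, 2, 4 or 5. The usual form, Cox6b1, was at 348 to 1271 CPM in D10 ICM and 512 to 799 CPM in E4 ICM libraries and did not pass (0.32 ± 0.26, adjusted p = 0.407). Another testis form, Cox7b2, had 12 counts in all libraries, 7 of them in D10 ICM.

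Of the 16 tested complex IV members, 5 were lower in the ICM at E4 (31.2%, where 15.4% of all genes were). These were Cox4i1, Cox5a, Cox6c, Cox7a2 and Cox7c. At D10 1 was lower, Cox4i1 (6.25%, where 12.6% of all genes were). Cox4i1, the main form of subunit 4, had 627, 859, 981, 809 and 752 CPM in D10 ICM libraries, against 1219, 1205, 1428, 959 and 1658 CPM in D10 TE libraries, overlapping through 1 library on each side. The difference was -0.68 ± 0.18 at D10 (adjusted p = 0.00686) and -0.55 ± 0.18 at E4 (adjusted p = 0.0252), the E4 call being lost without replicate 2 of E4 ICM or replicate 3 of E4 TE. Cox7c was lower at D10 in the TE (-0.95 ± 0.24, adjusted p = 0.00516), with 587 to 1054 CPM at D10, against 1070 to 1874 CPM at E4, and 62.1% of the words of its 3′ end recur in other annotated genes. Ndufa4 was higher in ICM than in TE libraries at D10 (0.72 ± 0.27, adjusted p = 0.0482), a call lost in 13 of the 20 fits that left out a library and with the litter as a block.

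**Figure D2:**
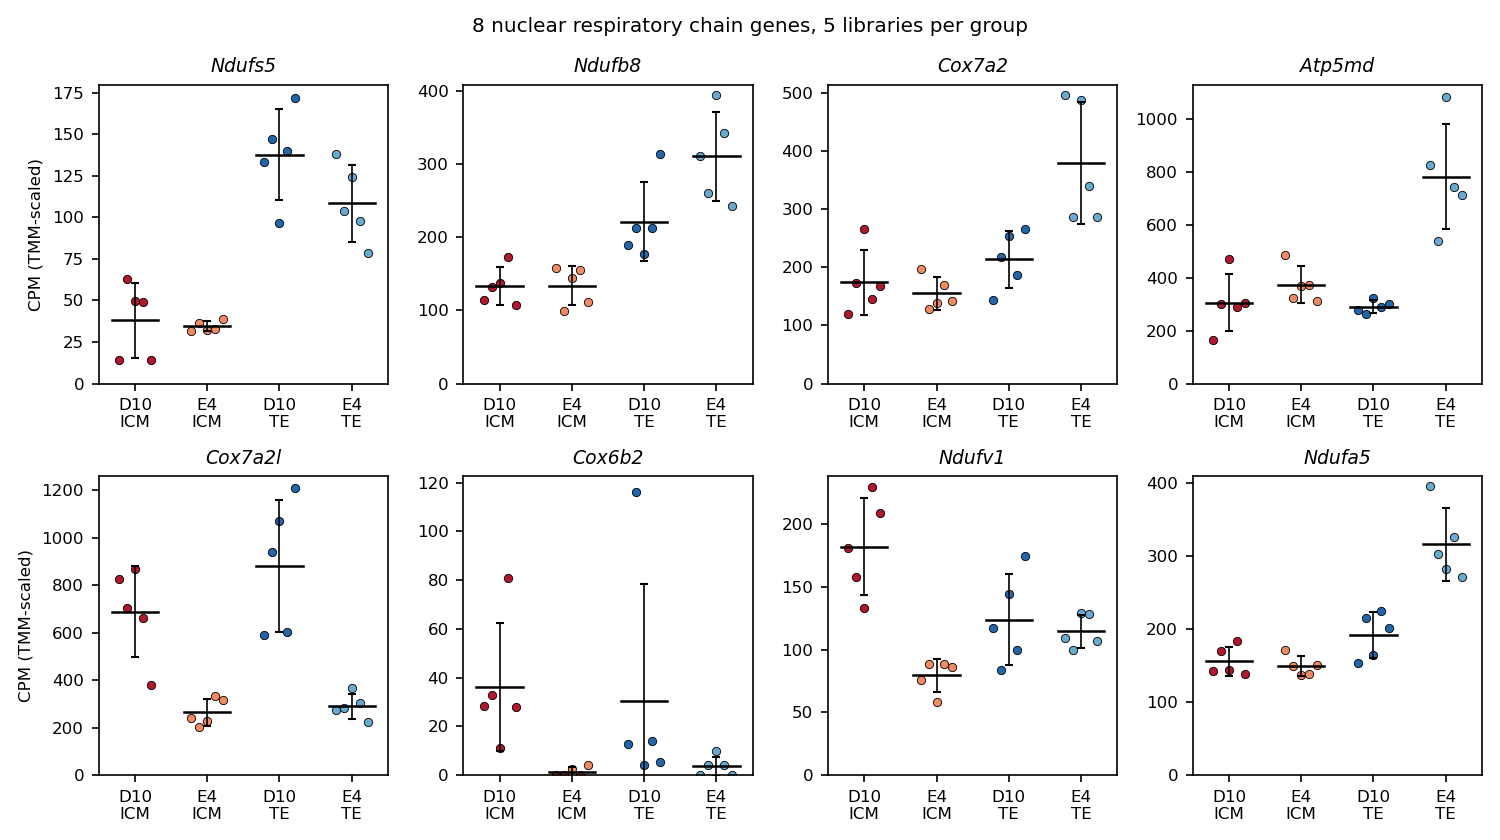
CPM of 8 nuclear respiratory chain genes (vertical axes, linear from 0) in the 5 libraries of each group (points), with the mean (line) and SD (bar). Ndufs5 and Ndufb8 are lower in both ICM groups than in the TE group of the same time, Cox7a2 and Atp5md are highest in E4 TE libraries, as is Ndufa5, Cox7a2l is higher in both D10 groups and Ndufv1 in D10 ICM.

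ATP synthase, complex V, joins a catalytic head to a rotor and small subunits in the membrane. Of the 5 small membrane subunits, 4 were lower in ICM than in TE libraries at E4 (Atp5l, Atp5mpl, Atp5md and Atp5j2), as were 1 of the 3 c ring genes (Atp5g1) and 1 of the 5 subunits of the F1 catalytic head (Atp5e), in all 6 of 18 tested members (33.3%, where 15.4% of all genes were). Of the 4 peripheral stalk subunits, 0 were lower by edgeR, by DESeq2 or at an unadjusted p under 0.05. At D10 the only complex V call was Atp5mpl (5.56%, where 12.6% of all genes were lower), while 4 head subunits were lower at an unadjusted p under 0.05 and 2 by DESeq2. Whether these parts differ from each other was not tested. In the ICM across time no complex V member of 18 was called (2 were lower at an unadjusted p under 0.05, and 0 by DESeq2), while in the TE 5 were lower at D10 (27.8%, where 9.89% of all genes were): Atp5md, Atp5g1, Atp5g2, Atp5j2 and mt-Atp6. Those TE calls and the calls at E4 both rest on the E4 TE libraries.

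Atp5md (chromosome 19, 47083464 to 47090647, minus strand), also called DAPIT, sits where ATP synthase dimers meet. It had 277, 263, 325, 290.0 and 300.5 CPM in D10 TE libraries, against 829, 539, 1086, 745 and 715 CPM in E4 TE libraries. In the ICM it had 166, 299.9, 471, 288 and 306 CPM at D10, against 488, 324, 371, 374 and 314 CPM at E4. E4 TE libraries thus stood above all 15 others. The difference was -1.43 ± 0.22 across time in the TE (adjusted p = 3.95e-05), -0.29 ± 0.22 in the ICM (adjusted p = 0.373) and -1.08 ± 0.22 between ICM and TE at E4 (adjusted p = 0.000535). The difference of the changes, 1.14 ± 0.31 (adjusted p = 0.0297), was lost without replicate 2 or 5 of E4 ICM, replicate 3 of E4 TE or replicate 3 of D10 ICM (highest adjusted p among these 0.0549), and with thinned libraries or without both libraries highest in mitochondrial rRNA (highest adjusted p = 0.0857). The 3′ end of Atp5md overlaps Taf5 on the opposite strand.

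Atp5mpl, another small membrane subunit, had 399, 261, 301, 339 and 331 CPM in E4 ICM libraries, against 725, 564, 796, 673 and 544 CPM in E4 TE libraries, with no overlap. At D10 it had 299, 356, 382, 280.2 and 195 CPM in the ICM, against 369, 479, 514, 407 and 642 CPM in the TE, with overlap. The difference was -1.03 ± 0.20 at E4 (adjusted p = 0.000347) and -0.67 ± 0.20 at D10 (adjusted p = 0.0145, lost without D10 ICM replicate 5 or D10 TE replicate 5). Atp5l differed by -1.27 ± 0.26 at E4 (adjusted p = 0.000448), with 88.8 to 159.8 CPM in ICM libraries, against 187 to 385 CPM in TE libraries; 58.6% of its 3′ words occur in other annotated genes, most of them pseudogenes. Atp5j2 differed by -0.79 ± 0.17 (adjusted p = 0.00112). The catalytic subunit Atp5b was called in no comparison (-0.38 ± 0.18 and -0.06 ± 0.18 in the D10 minus E4 changes of ICM and TE, and -0.15 ± 0.18 and 0.17 ± 0.18 between the tissues at D10 and E4).

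Of the c ring, which turns with the passing protons and whose 3 genes give the same mature protein, Atp5g1 and Atp5g2 were lower at D10 in the TE (-0.62 ± 0.20, adjusted p = 0.0306, and -0.93 ± 0.31, adjusted p = 0.0314) and Atp5g3 was at -0.38 ± 0.20 (adjusted p = 0.182). The Atp5g1 call was lost without E4 TE replicate 3 or D10 TE replicate 1, 3 or 4, and the Atp5g2 call without these or E4 TE replicate 1. For Atp5g2, 98.9% of the 3′ words occur in annotated copies, so its level is uncertain.

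Summed over the nuclear members, the ICM means lay below the TE means at both times. The 91 nuclear members summed to 20559, 29967, 27288, 27129 and 17957 CPM in D10 ICM libraries, against 25973, 30159, 30526, 28644 and 37305 CPM in D10 TE libraries. At E4 they summed to 28998, 20464, 23786, 25596 and 23867 CPM in the ICM, against 35481, 26515, 35910, 32114 and 28425 CPM in the TE. ICM and TE libraries overlapped at both times, with means of 24580 and 30521 CPM at D10 and 24542 and 31689 CPM at E4. Set side by side by litter, the nuclear sum was lower in the ICM in 5 of 5 litters at D10 and 5 of 5 at E4. Sums over members chosen by name were given no test.

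The 13 mitochondrial genes did not follow the nuclear ones in the order of the tissues. They summed to 73998, 63456, 92201, 77184 and 74981 CPM in D10 ICM libraries, against 52808, 57207, 79946, 50668 and 104719 CPM in D10 TE libraries. At E4 they summed to 95656, 74486, 55951, 52402 and 96589 CPM in the ICM, against 76526, 73150, 65571, 48648 and 88045 CPM in the TE. All groups overlapped. The ratio of mitochondrial to nuclear member counts, which does not depend on the scaling, was 3.22 ± 0.781 in D10 ICM and 3.08 ± 0.85 in E4 ICM libraries, against 2.22 ± 0.46 in D10 TE and 2.27 ± 0.653 in E4 TE libraries (SD, n = 5 each). It ran from 2.12 to 4.18 in D10 ICM, 2.05 to 4.05 in E4 ICM, 1.77 to 2.81 in D10 TE and 1.51 to 3.1 in E4 TE libraries, so that the ICM and TE ranges overlapped. Set side by side by litter, the ratio was higher in the ICM in 5 of 5 litters at D10 and 5 of 5 at E4. Counts listed for annotated copies of mitochondrial genes, described below, are in neither the sums nor the ratio. Of these copies, Gm13340 averaged 6751 CPM in D10 ICM and 104 CPM in D10 TE libraries. Gm29216 went the other way, with 369.6 CPM in D10 ICM and 2520 CPM in D10 TE libraries. The part of such copies in the sums and the ratio was not tested.

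**Figure D3:**
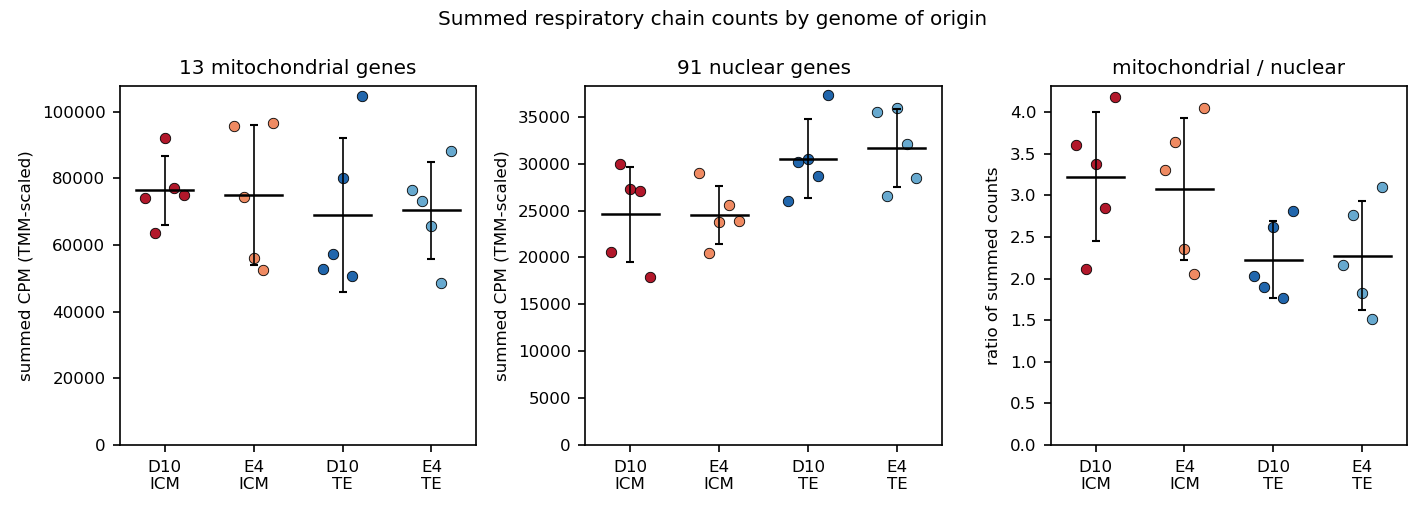
Summed CPM of the 13 mitochondrial and of the 91 nuclear respiratory chain genes and the ratio of their summed counts (vertical axes, linear from 0) in the 5 libraries of each group (points), with mean and SD. Nuclear sums average 24580 and 24542 CPM in the ICM groups, below 30521 and 31689 CPM in the TE groups, and the ratio is 3.22 and 3.08 in the ICM groups, against 2.22 and 2.27 in the TE groups, with overlap between libraries.

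The mitochondrial genome is transcribed from both strands into long precursors that are cut into mRNAs, and mt-Nd4l with mt-Nd4 and mt-Atp8 with mt-Atp6 stay joined as shared mRNAs. Counts were unevenly spread over the 13 genes: mt-Cytb held 25.6% of them, mt-Nd1 22.3%, mt-Nd4 21.3%, mt-Nd6 15.4%, mt-Nd2 7.34% and mt-Nd5 6.19%, while mt-Co1 held 1.46%, mt-Atp6 0.218%, mt-Co2 0.147% and mt-Co3 0.0628%. With 17 counts of mt-Nd3, 9 of mt-Nd4l and 1 of mt-Atp8 in all libraries, those 3 were not tested. These are shares of 3′-end counts and are not a ranking of abundance. mt-Nd4l and the short mt-Atp8 lie before mt-Nd4 and mt-Atp6 in these shared mRNAs, so their annotated ends are not mRNA ends. The part of this in their low counts was not tested. Apart from mt-Atp8, the genes with few counts have annotated 3′ ends that recur in annotated copies elsewhere in the genome. Of the words of 81 bases in the last 300 bases, 100% recurred for mt-Co1, 99.5% for mt-Co3 and 98.6% for mt-Co2, mt-Atp6, mt-Nd3 and mt-Nd4l, against 22.3% for mt-Nd2 and 0% for mt-Nd1, mt-Nd4, mt-Nd5, mt-Nd6 and mt-Cytb.

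The table listed many counts for these copies: 12387 for Gm13341 and 3030 for Gm28661 beside 787 for mt-Co2, 7811 for Gm29216 and 13704 for Gm13340 beside 7810 for mt-Co1, 3152 for Gm10925 beside 1165 for mt-Atp6 and 1235 for Gm28437 beside 336 for mt-Co3. Some copies also differed between groups by far more than the mitochondrial genes. Gm29216 had 357, 290, 465, 360 and 376 CPM in D10 ICM libraries and 431, 389, 371, 345 and 585 CPM in E4 ICM libraries, but 2172, 2159, 3266, 2336 and 2669 CPM in D10 TE libraries, against 115, 129, 141, 95.6 and 172 CPM in E4 TE libraries. Its log2 difference in the TE was 4.29 ± 0.23, while mt-Co1 was at 0.23 ± 0.23. Gm13340 was at 4923 to 8337 CPM in D10 ICM libraries, against 72.4 to 103 CPM in E4 ICM libraries, a log2 difference of 6.31 ± 0.26. Each group is 1 amplification pool, so that a difference of such copies between groups and one between pools cannot be told apart, and the levels of mt-Co1, mt-Co2, mt-Co3, mt-Atp6, mt-Nd3 and mt-Nd4l are uncertain. Copies of mt-Nd2 (Gm13339, 6634 counts) and of mt-Nd4 (Gm28439, 3139 counts) were also listed. Over its whole length, 61.3% of the mt-Nd4 words recurred. Gm13339 was not called, and Gm28439 was higher in ICM than in TE libraries at E4 (1.86 ± 0.60, adjusted p = 0.0205). The part of these copies in the levels of mt-Nd2 and mt-Nd4 was not tested.

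**Figure D4:**
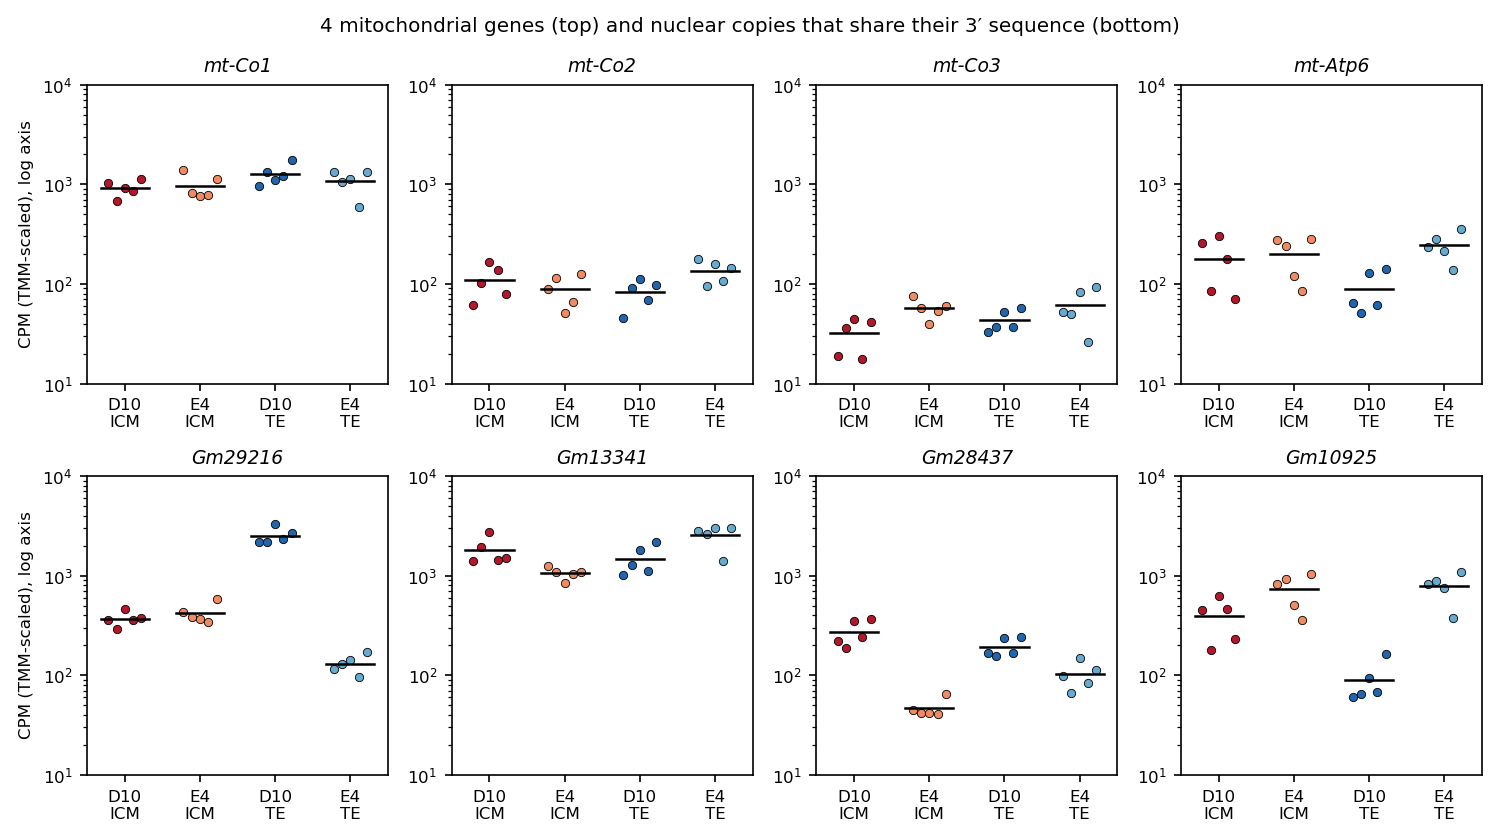
CPM of 4 mitochondrial genes (top row) and of 4 annotated nuclear copies that share their 3′ sequence (bottom row) in the 5 libraries of each group (points), with the mean (line), on log axes. Gm29216 moves between the groups by more than mt-Co1 above it, with Gm29216 at 2159 to 3266 CPM in D10 TE libraries, against 95.6 to 172 CPM in E4 TE libraries.

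Of the 10 mitochondrial genes tested, mt-Nd2 was lower at D10 in the ICM. It had 4045, 3171, 6670, 4720 and 3283 CPM in D10 ICM libraries, against 13225, 9865, 5960, 7316 and 11942 CPM in E4 ICM libraries, with 1 D10 library inside the E4 range. The difference was -1.14 ± 0.31 (adjusted p = 0.00977) and held in every fit with a library left out, but not without the E4 litters with a zona pellucida (adjusted p = 0.0977). At E4 mt-Nd2 was also higher in ICM than in TE libraries (0.93 ± 0.31, adjusted p = 0.0255), where TE libraries had 6922, 5641, 5516, 3102 and 4250 CPM and overlapped the ICM, a comparison that shares the E4 ICM libraries. That call was lost without replicate 1 or 5 of E4 ICM and without replicate 4 or 5 of E4 TE.

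In the TE, mt-Nd5 had 5505, 3501, 5735, 2837 and 18584 CPM at D10, against 3027, 2970, 2456, 1837 and 1374 CPM at E4. The groups overlapped by 1 D10 library, and D10 TE replicate 5 stood far above the rest. The difference of 1.63 ± 0.42 (adjusted p = 0.00625) fell to 0.89 (adjusted p = 0.0656) without that library. mt-Nd6, which lies on the opposite strand over the end of mt-Nd5, had 11887, 12262, 15567, 6898 and 23578 CPM at D10, against 9684, 9120, 8111, 6457 and 6160 CPM at E4, and again replicate 5 was the highest. Its difference of 0.83 ± 0.29 (adjusted p = 0.0388) was lost in 7 of the 20 fits with a library left out, D10 TE replicate 5 among them. Across the 20 libraries the log2 levels of mt-Nd5 and mt-Nd6 had a Pearson r of 0.887 and a Spearman rho of 0.883 (r = 0.892 on deviations from group means), given as a description, since both share libraries. The annotated genes overlap only from base 13552 to base 13565 of the mitochondrial genome, and 0% of the 81-base words of mt-Nd6 recur in another gene. Without stated strand use, reads from opposite strands cannot be told apart wherever transcripts overlap. Whether transcripts of mt-Nd5 run past its annotated end into mt-Nd6 was not examined, so the 2 levels may not be independent. The cause of the correlation was not tested.

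mt-Atp6 was lower at D10 in the TE, with 63.9, 51, 128, 61.1 and 142 CPM at D10, against 236, 282, 214, 137 and 351 CPM at E4, overlapping by 1 library. The difference was -1.43 ± 0.39 (adjusted p = 0.00951), and its copy Gm10925 differed by -3.13 ± 0.37 in the same comparison. mt-Cytb, mt-Nd4 and mt-Nd1 were not called across time. mt-Cytb differed by 0.27 ± 0.23 in the ICM and -0.05 ± 0.23 in the TE (adjusted p = 0.437 and 0.918), mt-Nd4 by 0.26 ± 0.25 and -0.39 ± 0.25 (0.476 and 0.271), and mt-Nd1 by -0.15 ± 0.25 and -0.62 ± 0.25 (0.725 and 0.0814). No mitochondrial gene differed between ICM and TE at D10 by edgeR or DESeq2, with 3 higher and 1 lower at an unadjusted p under 0.05.

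**Figure D5:**
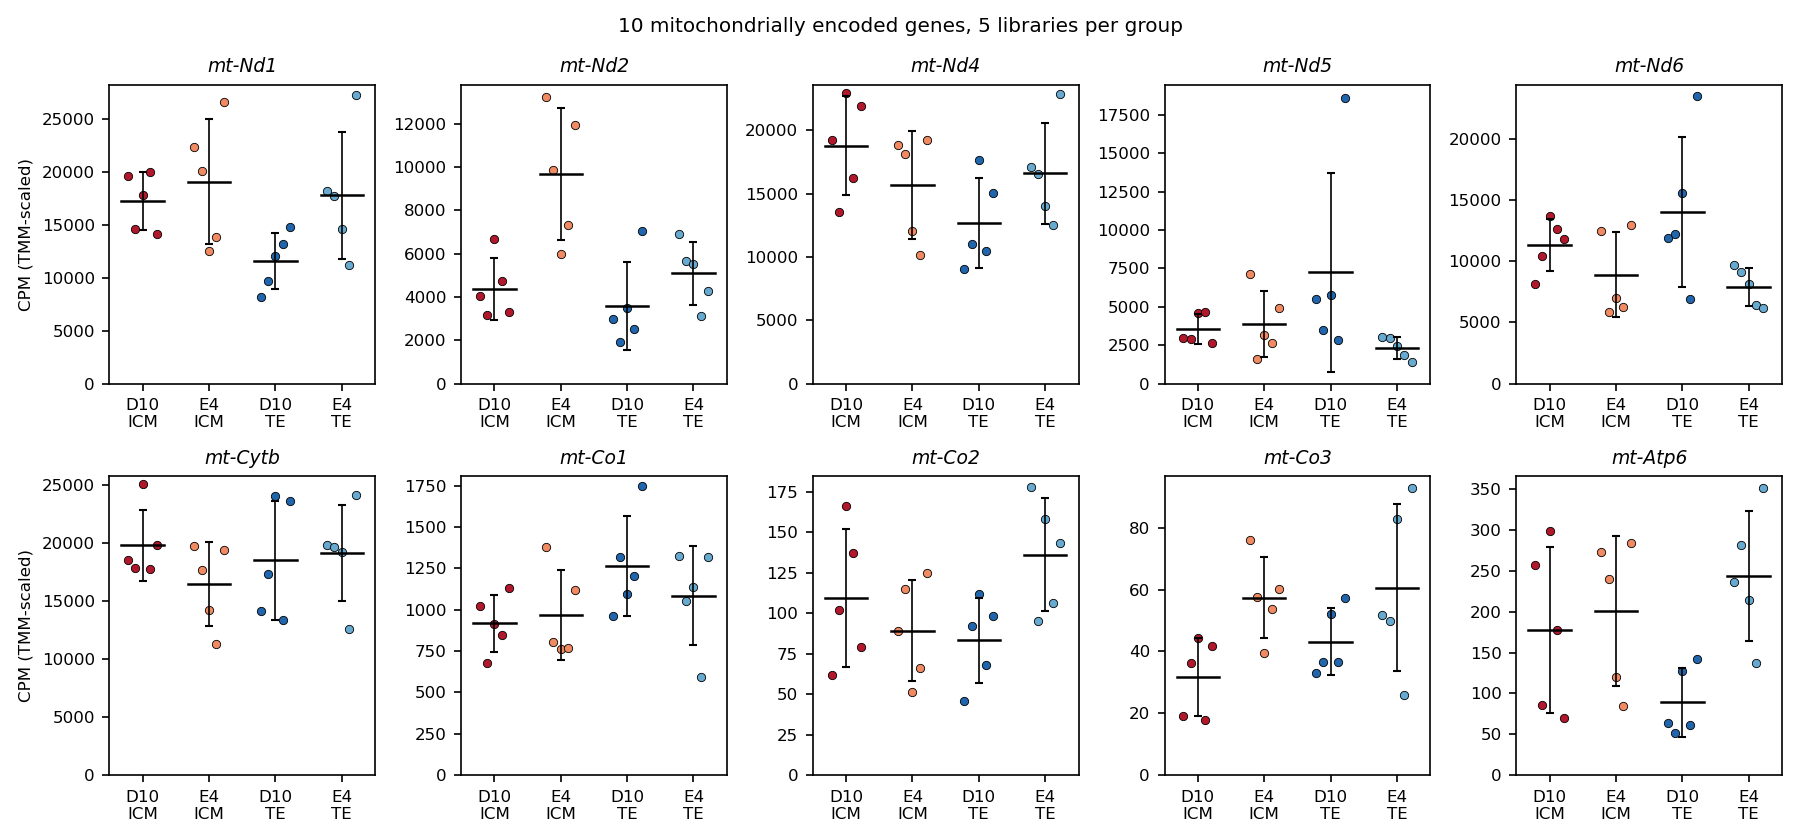
CPM of the 10 tested mitochondrially encoded genes (vertical axes, linear from 0) in the 5 libraries of each group (points), with the mean (line) and SD (bar). mt-Nd2 is highest in E4 ICM libraries, mt-Nd5 reaches 18584 CPM in D10 TE replicate 5, and mt-Cytb and mt-Nd4 overlap in all 4 groups.

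Genes that serve the chain were read from 5 lists. Of 14 tested electron carriers and partners, 4 were higher and 2 lower at D10 in the ICM, and 1 higher and 4 lower in the TE. The shares over all genes, for these and the following lists, were 13.7% higher and 9.97% lower in the ICM and 11.9% and 9.89% in the TE. Atpif1, the inhibitor that binds ATP synthase when the proton gradient falls, had 242, 430.1, 249, 403 and 320.4 CPM in D10 ICM libraries, against 171, 91.4, 99.6, 126 and 94.6 CPM in E4 ICM libraries, with no overlap. In the TE it had 120.3 to 259.5 CPM at D10, against 122 to 184 CPM at E4. Its difference was 1.55 ± 0.25 in the ICM (adjusted p = 7.31e-05), and the change there exceeded that in the TE by 1.40 ± 0.35 (adjusted p = 0.0163). Ucp2, a carrier of the inner membrane, was higher at D10 in the ICM (1.58 ± 0.47, adjusted p = 0.015) and the TE (2.32 ± 0.57, adjusted p = 0.00451), with 27.7 to 178 CPM in D10 ICM, against 12.7 to 76.5 CPM in E4 ICM libraries, and 18.1 to 131 CPM in D10 TE, against 0 to 50.1 CPM in E4 TE libraries, so the ranges overlapped. Lower at D10 in both tissues were Slc25a5, an ADP/ATP carrier (-0.91 ± 0.22 in the ICM, adjusted p = 0.00404, and -0.62 ± 0.22 in the TE, adjusted p = 0.0441), and Gpd2, which feeds electrons from glycerol phosphate into the chain (-1.36 ± 0.30, adjusted p = 0.00189, and -1.06 ± 0.33, adjusted p = 0.0214).

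Of 13 tested nuclear regulators of the chain, 1 was higher and 4 lower at D10 in the ICM, and 1 higher and 1 lower in the TE, where the shares of higher genes in the ICM and of both directions in the TE were below those over all genes. Hif1a, the oxygen-regulated transcription factor, had 124, 147, 244, 129 and 149 CPM in D10 ICM libraries, against 25.4, 73.1, 64.9, 55.8 and 60.2 CPM in E4 ICM libraries. In D10 TE libraries it had 186, 97.9, 160.5, 103 and 224 CPM, against 40.3, 53.9, 70.6, 43.8 and 50.1 CPM in E4 TE libraries. D10 and E4 did not overlap in either tissue, and the differences were 1.41 ± 0.27 (adjusted p = 0.000569) and 1.54 ± 0.28 (adjusted p = 0.000245). Nrf1, an activator of respiratory chain genes, was lower at D10 in both (-0.86 ± 0.27, adjusted p = 0.0225 in the ICM and -0.82 ± 0.27, adjusted p = 0.0311 in the TE), and Gabpa, another activator, in the ICM (-1.09 ± 0.31, adjusted p = 0.0112).

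Of 12 tested genes of mitochondrial DNA and its transcription, with shares below those over all genes, 1 was lower at D10 in the ICM, Ssbp1 (-1.09 ± 0.26, adjusted p = 0.00357), which coats single-stranded mitochondrial DNA, and 1 higher in ICM than in TE libraries at E4, Tfam (1.12 ± 0.25, adjusted p = 0.00121), which packs the mitochondrial genome and starts its transcription. Of 30 tested factors that assemble complexes, 3 were higher and 2 lower at D10 in the ICM and 1 higher and 2 lower in the TE, all below the shares over all genes, and in the ICM at E4, set against the TE, 4 were higher and 3 lower (where 15.8% and 15.4% of all genes were). Of 18 tested genes of pyruvate dehydrogenase and the TCA cycle, 5 were lower in ICM than in TE libraries at D10 (where 12.6% of all genes were) and 4 at E4 (where 15.4% were). At D10 these included the 2-oxoglutarate dehydrogenase subunits Ogdh (-1.22 ± 0.23, adjusted p = 0.000271), Dlst (-1.05 ± 0.21, adjusted p = 0.000592) and Dld (-1.02 ± 0.24, adjusted p = 0.00204). Across time the same list had 1 higher and 1 lower in each tissue, below the shares over all genes.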

How the data were processed

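RNA of single-library lysates was barcoded by BRB-seq, a 3′ method with UMIs, per the labels' protocols, with 81-base inserts. The authors deposited 1 table of raw read counts per gene for the 20 libraries, and these counts are not normalized. Per the submitters' processing notes, the tools were featureCounts 2.0.1, HISAT2 2.2.1, UMI-tools and Trim Galore 0.6.7, and GRCm38 and GRCh38 are named, with no role stated. Whether UMIs were collapsed, strand was used or reads with several hits were kept, and which annotation was used, is not given in the sources used here.

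From the deposited counts, CPM with TMM factors were computed, and edgeR 4.0.16 in R 4.3.3 fitted 1 quasi-likelihood model over the 4 groups (16 residual degrees of freedom, minimum count 10), after tests on simulated data. Standard errors are the absolute log2 difference over the square root of the F statistic. Alternatives were RLE factors, DESeq2 1.42.0, no filter, a minimum count of 30, thinning to 144276 counts, scaling on nuclear genes, the litter block, no zona litters and each library left out. A further fit, without both libraries highest in mitochondrial rRNA, was chosen after seeing the data. Library pairs differed beyond sampling noise (lowest chi-square per degree of freedom 2.57). Per the deposited barcode list, ICM and TE libraries share 5 litters at each time, 2 of the E4 litters with zona. Deviations of libraries of the same litter correlated by 0.169 at D10 (-0.0302 to 0.293) and 0.177 at E4 (0.104 to 0.263). Gene positions and shared words are from GENCODE release M21 (GRCm38). Intervals and floors cover counting error only.

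Members and lists were chosen with earlier results of these data known. Named were all mitochondrial members, up to 8 called members per comparison and direction by adjusted p, isoform pairs, the Sdh genes, and up to 3 genes per list and direction. Atp5b, Atp5e, Atp5g3, Atp5j2, Cox5a, Cox6c, Ndufb9, Uqcr11, Elf5 and the nuclear copies were named after their values were seen. Results of 1 member are not reported here; it stays in the counts and sums.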

Additional observations from a re-analysis of the deposited data

Results flagged for a closer look

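In 8 of 208 groups of 5 libraries, 1 library stood apart from the other 4 by Dixon's criterion, which chance alone reaches in about 1 in 20 groups. In D10 TE, replicate 5 was the highest library for mt-Nd5 (18584 CPM, others 2837 to 5735), Cox6b1 (1702 CPM, others 1106 to 1209), Cox7c (1054 CPM, others 587 to 662) and Ndufb8 (314 CPM, others 177 to 213). D10 TE replicate 2 was the highest for Cox6b2 (116 CPM, others 4.01 to 14). In D10 ICM, replicate 3 was the highest for mt-Cytb (25072 CPM, others 17719 to 19814), replicate 4 for Cox7a1 (19.9 CPM, others 0 to 4.75), and replicate 5 was the lowest for Cox7b (260.0 CPM, others 411 to 459.8). D10 TE replicate 5 and D10 ICM replicate 3 are also the libraries with the most mitochondrial rRNA, whose part in these values was not tested.

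The D10 minus E4 change differed between ICM and TE, by the interaction term, for Atp5md (1.14) and Ndufv1 (1.12), both as ICM minus TE on the log2 scale.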

How the results depend on the processing

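Of 54 calls on named members, 23 passed under each alternative tried, 24 were lost in some fit that left out 1 library, 30 under some other setting, and 0 changed sign. Leaving out each library in turn gave, as members higher and lower, 5 to 10 and 1 to 4 at D10 in the ICM, 3 to 8 and 5 to 12 at D10 in the TE, 1 to 4 and 5 to 17 in the ICM against the TE at D10, 0 to 2 and 16 to 25 at E4, and 1 to 5 and 1 to 2 for the difference of the changes. Summed levels (log2) then ranged, for mitochondrial genes, from -0.08 to 0.13 across time in the ICM, -0.23 to 0.07 in the TE, 0.05 to 0.34 between tissues at D10 and -0.02 to 0.20 at E4; for nuclear genes from -0.08 to 0.10, -0.14 to 0, -0.39 to -0.22 and -0.44 to -0.31 in the same order.

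Other settings moved counts as follows. For the ICM across time, 4 were higher with no filter and 5 with thinning, and 5 were lower with a minimum count of 30 and 0 without the zona litters. For the TE across time, 11 were higher with DESeq2, 3 without the zona litters and 4 without both high-rRNA libraries. Between tissues at D10, 0 were higher with thinning, 5 with the litter block and 1 without the zona litters, and 7 were lower with thinning and 6 without both high-rRNA libraries. At E4, 2 were higher with a minimum count of 30, 2 with the litter block and 0 without the zona litters, which left 13 lower. For the difference of the changes, 5 were higher with DESeq2, 4 with a minimum count of 30, 0 with thinning, 4 with the litter block, 1 without the zona litters and 1 without both high-rRNA libraries, and 2 were lower with no filter and 0 with thinning. Thinning, the zona setting and the rRNA setting use fewer counts or libraries by construction; otherwise the cause was not tested. Across time, litters differ between groups, so no block could be fitted there. Genes with few counts, such as Cox6b2 and Sdhd, are limited by depth.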
